A study of Mus musculus with 6 samples.

Results

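The calcium handling genes described here are 10 genes for the pump, the release channel, the exchanger, the L-type channel and their regulators, which move calcium in the heart muscle cell. They were chosen by name: *Atp2a2*, *Pln*, *Sln*, *Ryr2*, *Casq2*, *Hrc*, *Slc8a1*, *Cacna1c*, *Camk2d* and *S100a1*. Of the 10, 9 had a row among the 17145 genes of the count table. *Sln* (sarcolipin, a small peptide regulator of the pump) had no row and was not analysed here. *Slc8a1* had 4 unique molecular identifiers (UMIs, tags that mark single cDNA molecules) over all libraries. The other 8 had at least 10 UMIs and were among the 7665 genes tested. All 8 had lower fitted levels in Atf3 high than in Atf3 low areas in edgeR with TMM scaling. *Camk2d* turned with library size and marker scaling, *S100a1* turned with these, with limma, with a replicate block and without some single libraries, and no member passed an adjusted p of 0.05.

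The libraries came from hearts of female FS6KD mice, in which a homozygous gene trap lowers *Ndufs6*, a subunit of respiratory complex I, on a mixed genetic background that includes C57BL/6J. Every mouse of both groups carried this allele, no wild-type heart was part of the comparison, and the labels do not give the age. Photo-isolation chemistry recovered mRNA from areas of fresh-frozen sections that anti-Atf3 staining marked as Atf3 high or Atf3 low. The study places both inside Atf3-positive clusters, so Atf3 low does not stand for tissue without Atf3. There were 3 CEL-seq2 libraries of each, and the groups differ in Atf3 protein and in position within the tissue. The label calls the cells cardiomyocytes, and an irradiated area can hold other cells as well.

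In each heartbeat, calcium enters the cardiomyocyte through the L-type channel (Cacna1c) and opens the ryanodine receptor (Ryr2), which releases the calcium stored in the sarcoplasmic reticulum, where calsequestrin (Casq2) binds it. For relaxation, the pump Serca2 (Atp2a2), held back by phospholamban (Pln) and sarcolipin (Sln), returns calcium to this store, and the sodium-calcium exchanger (Slc8a1) carries it out of the cell. The kinase CaMKII delta (Camk2d) phosphorylates phospholamban and the ryanodine receptor, S100a1 binds both the pump and the release channel, and Hrc is a calcium-binding protein of the store.

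Upstream sequence is shown for *Pln*, *Ryr2* and *Casq2*, a pump regulator, the release channel and the calcium buffer of the store, because these were the members of largest fold change and because Atf3 is a DNA-binding protein. The 250 bases before the RefSeq start are given 5′ to 3′ on the strand of the gene, from GRCm38.p6. The windows are chr10:53337436-53337685 (plus strand) for *Pln*, chr13:12106946-12107195 (minus strand) for *Ryr2* and chr3:102086165-102086414 (plus strand) for *Casq2*. Capitals mark CpG dinucleotides.
Pln: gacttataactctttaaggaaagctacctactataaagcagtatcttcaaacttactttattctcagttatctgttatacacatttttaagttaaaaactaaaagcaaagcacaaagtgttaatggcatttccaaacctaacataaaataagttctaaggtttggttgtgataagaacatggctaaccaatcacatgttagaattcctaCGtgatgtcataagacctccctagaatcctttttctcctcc
Ryr2: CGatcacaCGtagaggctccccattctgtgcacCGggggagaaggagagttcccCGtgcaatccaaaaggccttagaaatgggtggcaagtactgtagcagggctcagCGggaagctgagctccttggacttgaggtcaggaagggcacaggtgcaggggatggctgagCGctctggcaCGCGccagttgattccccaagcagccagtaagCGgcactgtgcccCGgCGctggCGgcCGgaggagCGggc
Casq2: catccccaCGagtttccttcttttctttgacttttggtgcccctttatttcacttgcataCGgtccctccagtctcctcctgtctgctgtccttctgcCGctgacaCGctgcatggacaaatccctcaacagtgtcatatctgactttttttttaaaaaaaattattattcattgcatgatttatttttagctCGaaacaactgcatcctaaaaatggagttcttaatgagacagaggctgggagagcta
These windows differed widely in base composition. That of *Pln* had 32.8% G and C with 1 CpG, that of *Casq2* 41.6% with 5 and that of *Ryr2* 63.2% with 14, where all RefSeq promoters had a median of 52.4% and 6 CpG. Of the members, 8 matched a RefSeq promoter entry, with 10 windows of 250 bases before to 50 bases after the start. The Atf3 and CREB site TGACGTCA and the pattern TGANTCA that covers the AP-1 site were searched on both strands. So was the pattern CTA, 4 bases of any kind and TAG, which covers only some forms of the Mef2 site. These patterns stood in 0 of the 10 windows, and in 1.79%, 7.81% and 3.69% of 32851 promoters of the same length. This says only that these letters are not in these windows, and other forms of the Mef2 site were not searched.

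The libraries held 81117 to 210588 UMIs, with 6936 to 11971 genes detected. Levels below are CPM, the UMI counts brought to a common library size after TMM scaling, so 1 UMI was worth 4.66 to 13.6 CPM, and a gene with no UMI could have had up to 14.0 CPM in the deepest and 40.9 CPM in the shallowest library on that scale (3 UMIs, counting error only). *Ndufs6* was counted at 2, 0 and 3 UMIs in the Atf3 high replicates 1, 2 and 3 (the order used throughout) and at 0 in each Atf3 low replicate. The UMIs of *Atf3* RNA itself were 50, 7 and 25 in Atf3 high, against 35, 0 and 8 in Atf3 low. In Atf3 high replicate 2, the Y-linked *Ddx3y* and *Eif2s3y* had 16 UMIs together and *Xist* had 0, against the label female, and Atf3 low replicate 1 held 1 Y-linked UMI. The main counts are therefore also given without Atf3 high replicate 2, which also had the fewest UMIs.

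*Atp2a2* (Serca2), on chr5:122453513-122502225 (minus strand, GRCm38), had the most UMIs of the members, 3648 in all. Its level was 2983, 2221 and 4742 CPM in Atf3 high, against 6065, 4246 and 6129 CPM in Atf3 low. The groups overlapped, because Atf3 high replicate 3 lay above Atf3 low replicate 2. Mean levels (± SD, n = 3 libraries) were 3315 ± 1293 CPM against 5480 ± 1069 CPM, for a log2 fold change of −0.72 (standard error, SE, 0.32, adjusted p = 0.810 after Benjamini-Hochberg adjustment in the quasi-likelihood test of edgeR). The unadjusted p was 0.0308 in that edgeR fit.

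*Pln* (phospholamban), on chr10:53337667-53345987, is the main brake on the pump. It was at 406.5, 193.1 and 810.5 CPM in Atf3 high, against 1065, 609 and 967 CPM in Atf3 low. Atf3 high replicates 1 and 2 lay below all Atf3 low libraries, and replicate 3 stood within their range. The log2 fold change was −0.88 (SE 0.42, unadjusted p = 0.0433, adjusted p = 0.841, quasi-likelihood test of edgeR). The 3 Atf3 high libraries of *Pln* spanned a 4.20-fold range, against 1.75-fold in Atf3 low.

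*Ryr2*, the release channel, lies on chr13:11553102-12106945 (minus strand). Its level was 289.6, 325.9 and 596.2 CPM in Atf3 high, against 707.5, 825.9 and 667.3 CPM in Atf3 low. Every Atf3 high library was below every Atf3 low library, which held for *Ryr2* alone of the 8 members (3.89% of all tested genes lay without overlap in this direction). Mean levels (± SD, n = 3 libraries) were 403.9 ± 167.5 and 733.6 ± 82.4 CPM, for a log2 fold change of −0.85 (SE 0.40, unadjusted p = 0.0399, adjusted p = 0.824, quasi-likelihood test of edgeR).

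*Casq2* (cardiac calsequestrin), on chr3:102086415-102146514, had the lowest unadjusted p of the members. It was at 609.7, 337.9 and 763.9 CPM in Atf3 high, against 633.4, 1577 and 1444 CPM in Atf3 low. Atf3 low replicates 2 and 3 were far above all other libraries, whereas Atf3 low replicate 1 lay within the Atf3 high range. The log2 fold change was −1.07 (SE 0.40, unadjusted p = 0.00991), and with rank 113 among all genes by p it had an adjusted p of 0.649 (quasi-likelihood test of edgeR). *Hrc*, on chr7:45335290-45338974, another calcium-binding protein of the store, was at 284.5, 132.8 and 549.6 CPM in Atf3 high, against 417.8, 433.8 and 735.4 CPM in Atf3 low. Its Atf3 high replicate 3 lay above Atf3 low replicates 1 and 2, and the log2 fold change was −0.66 (SE 0.45, adjusted p = 0.965, edgeR).

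*Cacna1c*, the pore subunit of the L-type channel, lies on chr6:118587240-119196418 (minus strand). It had only 146 UMIs, at 137.2, 48.3 and 205.0 CPM in Atf3 high, against 148.2, 158.5 and 408.6 CPM in Atf3 low. The highest value was that of Atf3 low replicate 3 and the lowest, from 4 UMIs, that of Atf3 high replicate 2, with overlap between them. The log2 fold change of *Cacna1c* was −0.76 (SE 0.53, adjusted p = 0.965, edgeR).

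*Slc8a1*, the sodium-calcium exchanger (chr17:81373105-81738377, minus strand), was at the detection limit, with 0, 2 and 1 UMIs in Atf3 high, against 1, 0 and 0 in Atf3 low. These are 3 of 476577 UMIs, or 6.29 CPM without TMM scaling (exact Clopper-Pearson 95% interval 1.30 to 18.4), and 1 of 378975 UMIs, or 2.64 CPM (0.0668 to 14.7). The intervals overlap and cover counting error only, so a difference was not detectable at this depth, and no fold is given. *Slc8a1* has 18807 exonic bases in the annotation, while CEL-seq2 counts tags near the polyadenylated end. Whether its tags fell outside the annotated exons was not tested.

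*Camk2d*, on chr3:126596302-126846326, had levels close together in all libraries, at 274.4, 193.1 and 237.6 CPM in Atf3 high, against 316.7, 258.6 and 245.1 CPM in Atf3 low. The groups overlapped, and the log2 fold change was −0.21 (SE 0.45, adjusted p = 0.996, edgeR). With library size scaling it was 0.0010, so *Camk2d* has no settled direction. *S100a1*, on chr3:90511034-90514392 (minus strand), was at 1031, 881 and 1742 CPM in Atf3 high, against 451.5, 1885 and 1798 CPM in Atf3 low. Atf3 low held both its highest and its lowest library, a 4.18-fold range. The log2 fold change of *S100a1* was −0.17 (SE 0.40, adjusted p = 0.996, edgeR), and its sign turned in 8 of 16 alternative settings, among them library size scaling.

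**Figure D1:**
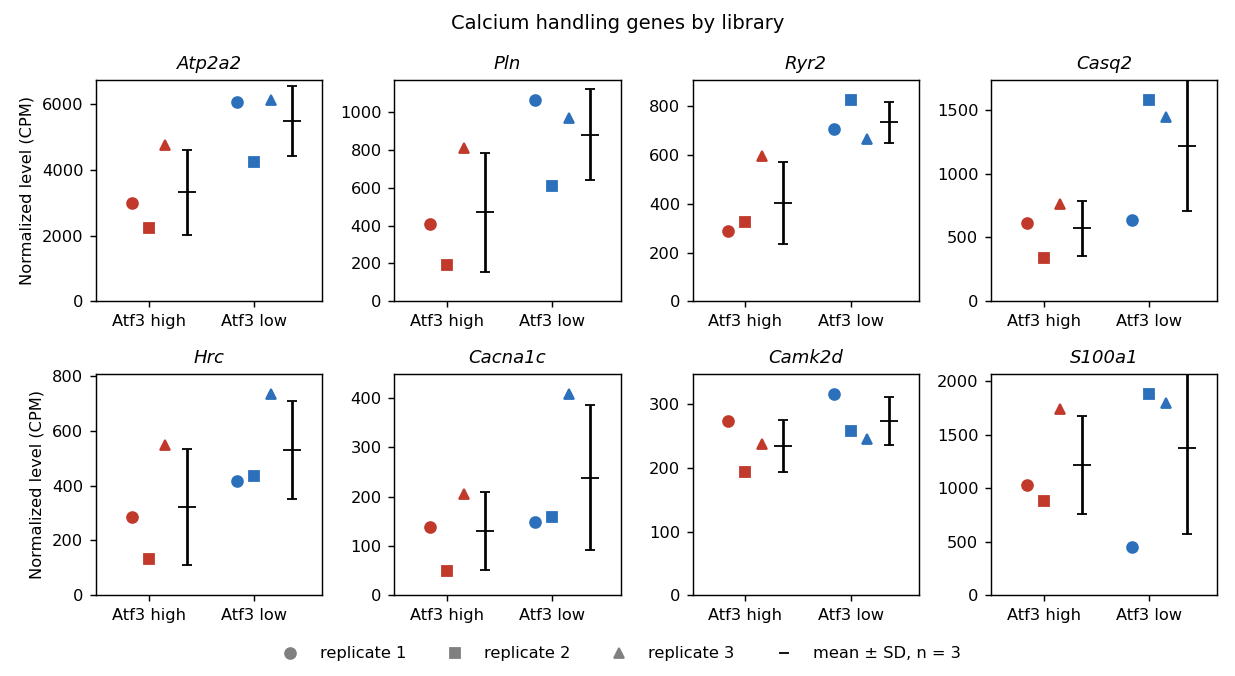
Normalized level (CPM, linear axis from 0) of the 8 tested members in each library, red for Atf3 high and blue for Atf3 low, with the marker shape giving the replicate and the black bar the mean ± SD of 3 libraries. Only the panel of *Ryr2* shows no overlap, with 289.6 to 596.2 CPM in Atf3 high and 667.3 to 825.9 in Atf3 low.

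Read as a group, 8 of 8 tested members had a negative log2 fold change with TMM scaling, where 44.8% of all tested genes did (6 of 8 with library size scaling or marker scaling, where *Camk2d* and *S100a1* were positive). It was 7 of 8 with limma-voom, limma-trend and the replicate block, and without Atf3 high replicate 2, Atf3 low replicate 2 or Atf3 low replicate 3, where *S100a1* was positive. Their median was −0.74, beside 0.11 for all 7665 genes. By edgeR's quasi-likelihood test 0 of 8 were called at an adjusted p of 0.05, a threshold that 0.0913% of all genes (7) passed. At an unadjusted p under 0.05, 4 of 8 were lower (*Atp2a2*, *Pln*, *Ryr2* and *Casq2*), where 2.24% of all genes were lower and 3.55% higher. DESeq2 also called 0 members and had 4 at an unadjusted p under 0.05. The members were counted in the same 6 libraries and are not independent of each other.

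For 6 of 8 members the range over the libraries, highest over lowest, was wider in Atf3 high, and for *Casq2* and *S100a1* it was wider in Atf3 low. In Atf3 high, replicate 2 was the lowest of the 3 for 7 of 8 members, and replicate 3 the highest for 7 of 8. Within Atf3 low no library took that place, since replicate 1 was lowest for 4 members and replicates 2 and 3 were each lowest for 2. Without Atf3 high replicate 2, the median of the members was −0.48, 7 were lower and 0 had an unadjusted p under 0.05 in edgeR. *Atp2a2* was then at −0.52, *Pln* at −0.54, *Ryr2* at −0.74 and *Casq2* at −0.83 on the log2 scale. Without Atf3 low replicate 3 the median was −0.51, again with 0 at that p, and without Atf3 high replicate 3 it was −1.25 with 5. Without Atf3 high replicate 1 only 1 member had an unadjusted p under 0.05, and without Atf3 low replicates 1 or 2 it was 2 each.

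**Figure D2:**
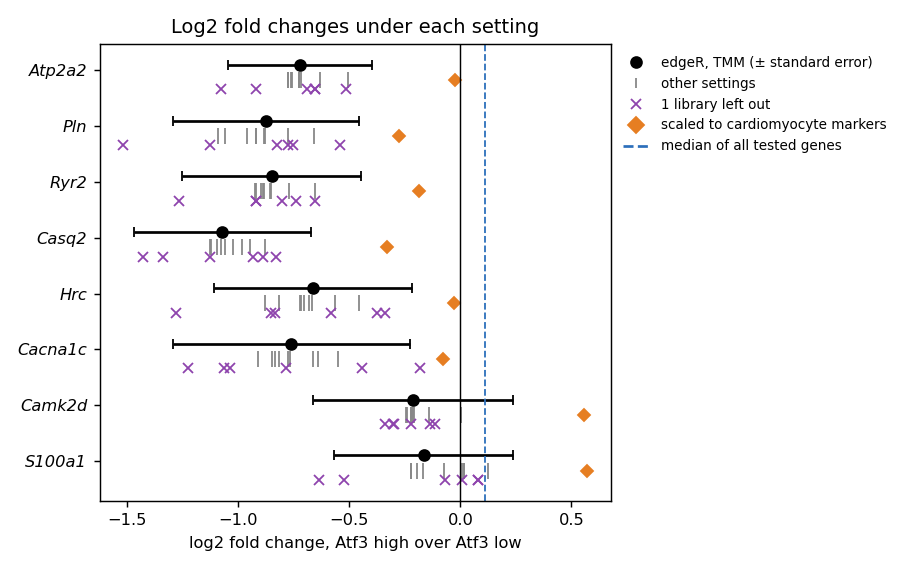
Log2 fold change (Atf3 high over Atf3 low) of each tested member with edgeR and TMM (black, ± standard error), with other settings (grey ticks), with 1 library left out (crosses) and scaled to cardiomyocyte markers (orange). *Casq2* is farthest from 0 at −1.07, all black points lie left of the all-gene median of 0.11 (dashed), and the orange values lie to the right, up to 0.57 for *S100a1*.

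Genes for the contractile apparatus were set beside the members to show how the muscle share of the RNA differed between libraries. The cardiomyocyte markers, of which 9 of 10 had a row, took 3.08%, 2.95% and 5.42% of the UMIs in Atf3 high, against 4.66%, 5.53% and 6.26% in Atf3 low. The 9 members took 0.640%, 0.445% and 0.984% in Atf3 high, against 0.849%, 0.954% and 1.11% in Atf3 low, so members and markers were both lowest in Atf3 high replicates 1 and 2. All 9 markers had negative log2 fold changes, with a median of −0.52, from −0.06 for *Ttn* and *Tnnc1* to −1.81 for *Myh6* (adjusted p = 0.00512, edgeR). In these areas fewer cells of a type and less RNA per cell cannot be told apart.

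Per 100 marker UMIs of the same library, the members had 20.8, 15.1 and 18.2 UMIs in Atf3 high, against 18.2, 17.3 and 17.8 in Atf3 low. The means were 18.0 ± 2.85 and 17.7 ± 0.486 (SD, n = 3 libraries), a log2 difference of 0.01, or −0.15 without *Myh6* among the markers. The Atf3 high libraries lay on both sides of the Atf3 low libraries, and the spread was again larger in Atf3 high. When libraries were scaled to the markers, an alternative chosen after the data were seen, the log2 fold changes were −0.02 for *Atp2a2*, −0.27 for *Pln*, −0.19 for *Ryr2*, −0.33 for *Casq2*, −0.03 for *Hrc*, −0.08 for *Cacna1c*, 0.56 for *Camk2d* and 0.57 for *S100a1*. That scaling moved the median of all genes to 0.84 and that of the members to −0.05, with 0 members at an unadjusted p under 0.05 in edgeR. Scaling by library size moved them to 0.31 and −0.53, with 6 members lower and 1 at that p. A scaling shifts the members and all genes together, so the difference of their medians, −0.85 with TMM, says nothing about which scaling applies. That difference was −0.59 without Atf3 high replicate 2, −0.56 without Atf3 low replicate 3 and −1.29 without Atf3 high replicate 3.

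**Figure D3:**
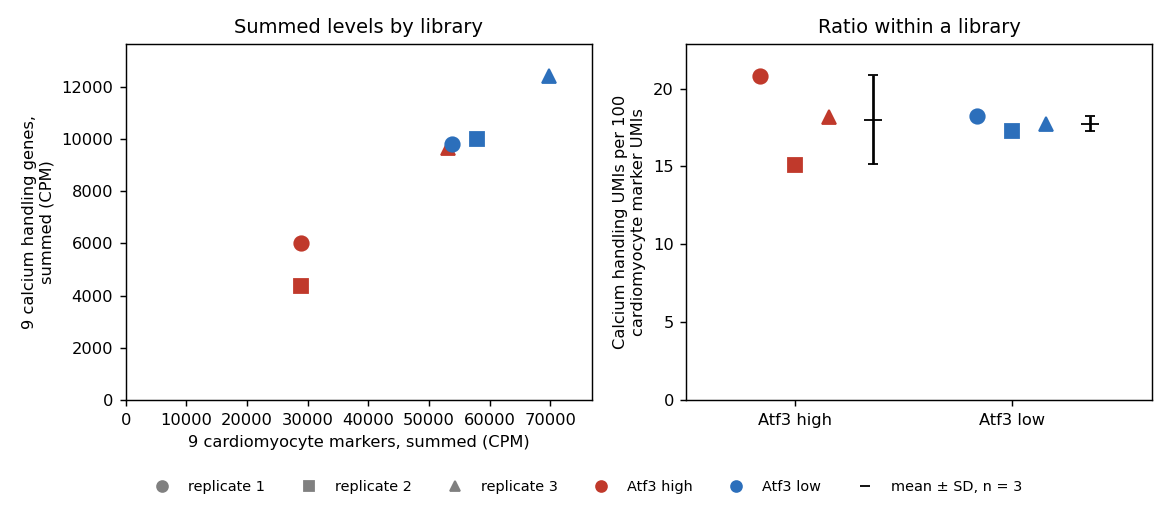
Left, summed level of the 9 members against that of 9 cardiomyocyte markers in each library (CPM, linear axes from 0). Right, member UMIs per 100 marker UMIs in each library with mean ± SD of 3, where Atf3 high (15.1 to 20.8) spans the Atf3 low values (17.3 to 18.2).

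Markers of other cells were summed in the same libraries. Of the fibroblast markers, 6 of 7 had positive log2 fold changes, with a median of 0.68, and they summed to 1868 to 5091 CPM in Atf3 high and 1444 to 2561 in Atf3 low. The mural cell markers were higher for 6 of 7 (median 0.72; 265.5 to 772.3 and 149.8 to 606.5 CPM). The endothelial markers (7 of 8 tested, 4 higher, median 0.07) summed to 1086 to 1514 and 953 to 1590 CPM. The macrophage markers (7 of 8 tested, 3 higher, median −0.08) summed to 172.3 to 360.8 and 242.6 to 358.7 CPM, and the erythrocyte markers to 32.6 to 156.9 and 0 to 128.0. Of the atrial markers, 4 of 7 had a row, and they summed to 121 to 784 CPM in Atf3 high and 27.0 to 109 in Atf3 low. In Atf3 high most of this was *Nppa* (31, 63 and 24 against 2, 4 and 5 UMIs, log2 fold change 3.22, adjusted p = 0.0345 in edgeR). The study names *NPPA* as a marker of heart failure, so *Nppa* is not read here as atrial alone. The atrial marker *Dkk3* had 7, 0 and 2 against 2, 0 and 0 UMIs, and *Myl4* had 1, 1 and 0 against 0, 0 and 3. These UMIs are too few to show whether atrial muscle was in the areas. None of 6 skeletal muscle markers had a row. The abundant muscle gene *Mb* and *Sln* had none either, so a missing row is not read as absent expression. The share of mitochondrially encoded genes was 16.9% to 21.2% in Atf3 high, against 21.9% to 22.6% in Atf3 low. The part of these cells and shares in the values of the members was not tested.

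Within a library, the balance of the pump and its partners needs no scaling. For 100 *Atp2a2* UMIs there were 13.6, 8.70 and 17.1 of *Pln* in Atf3 high, against 17.6, 14.3 and 15.8 in Atf3 low. The mean log2 ratio differed by −0.31 (−2.97 ± 0.48 against −2.65 ± 0.14, SD, n = 3; two-sided exact permutation test, p = 0.4, adjusted over both ratios tested 0.7). Per 100 *Atp2a2* UMIs, *Ryr2* had 9.71, 14.7 and 12.6 in Atf3 high, against 11.7, 19.5 and 10.9 in Atf3 low, a difference of −0.15 on the log2 scale (two-sided exact permutation test, p = 0.7, adjusted 0.7). In both ratios the groups overlapped, and 3 libraries against 3 cannot give a p below 0.1. The other ratios to *Atp2a2* were computed as values only. That of *S100a1* was 34.6, 39.7 and 36.7 in Atf3 high, against 7.44, 44.4 and 29.3 in Atf3 low, so its difference of 0.79 on the log2 scale came with Atf3 low replicate 1 far below all others. That of *Casq2* was 20.4, 15.2 and 16.1 against 10.4, 37.1 and 23.6, with the same library lowest.

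The members did not share 1 pattern over the 6 libraries. On log2(CPM + 4), *Pln* (Pearson r = 0.985 over 6 libraries) and *Hrc* (0.911) followed *Atp2a2* most closely, then *Cacna1c* (0.835), *Ryr2* (0.829), *Casq2* (0.666) and *Camk2d* (0.623), and *S100a1* had 0.0794. Among 1023 genes with at least 100 UMIs, the 5 most like *Atp2a2* were *Lpl* (0.993), *Mfn1* (0.993), *Tpm1* (0.992), *Pln* and *Pdlim5* (0.984), where the median gene had 0.150. These values describe libraries that also differ in depth and group, and carry no test.

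With TMM scaling, other genes of the calcium cycle were divided in direction. Of 99 such genes in 5 lists, 85 had a row and 59 were tested, of which 32 were lower and 27 higher, with a median of −0.07. With library size scaling 23 were lower (median 0.16) and with marker scaling 8 (median 0.67). By edgeR 0 were called and 2 were lower at an unadjusted p under 0.05, and the 1 that was higher at that p, *Strit1*, reached the count minimum only through Atf3 high. The genes named are among the 3 of smallest p in each list. Some of them have few UMIs and reached the count minimum only through the group where they are higher, so their direction is not read.

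Among the other genes for uptake and storage, 9 of 16 had a row and 7 were tested, of which 6 were higher and 1 lower (median 0.25, with 0 called). *Strit1*, which encodes DWORF, a peptide that frees the pump from phospholamban, had 6, 0 and 4 UMIs in Atf3 high, where no Atf3 low library had any. The 10 UMIs of *Strit1* reached the minimum for testing only through the group where it is high, so no test or fold is given. Atf3 high replicate 2 had none either. *Ppp1r3a*, a glycogen-targeting subunit of protein phosphatase 1, had a log2 fold change of 0.96 (SE 0.94) and *Hax1*, a binding partner of phospholamban, one of −1.17 (SE 1.41).

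Of the genes for the release unit and the dyad, all 22 had a row and 17 were tested, with 9 lower and 8 higher (median −0.01, 0 called). The inositol trisphosphate receptor *Itpr1* had 3, 0 and 2 UMIs in Atf3 high, against 4, 10 and 1 in Atf3 low. *Asph*, whose locus encodes junctin, had a log2 fold change of 0.38 (SE 0.43). *Asph* was at 340.4, 325.9 and 344.7 CPM in Atf3 high, against 269.5, 225.2 and 286.0 CPM in Atf3 low (adjusted p = 0.9965, edgeR). These did not overlap, with the higher levels in Atf3 high, opposite in direction to *Ryr2*. Of the 7665 tested genes, 542 lay without overlap in this direction. *Bin1*, which shapes T-tubule membrane, and *Itpr1* rest on few UMIs (11 and 20), and 10 of the 11 of *Bin1* came from Atf3 high. Each reached the minimum for testing only through the group where it was higher, so no fold is given for either. The skeletal release channel *Ryr1*, the channel *Ryr3* and the *Ryr2* partner *Fkbp1b* had 1 UMI each over all libraries.

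Of the genes for transport at the surface membrane, 20 of 25 had a row and 12 were tested, with 6 lower and 6 higher (median −0.11, 0 called). *Orai1*, a store-operated channel, had 13, 1 and 4 UMIs in Atf3 high, against 0, 1 and 2 in Atf3 low. The groups overlapped. *Orai1* reached the minimum for testing only through Atf3 high, where it is higher, so no test or fold is given.

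Of the kinases, phosphatases and receptors, 22 of 24 had a row and 15 were tested, with 10 lower and 5 higher (median −0.36, 0 called). *Akap6*, which anchors protein kinase A near the ryanodine receptor, was at 66.1, 36.2 and 74.5 CPM in Atf3 high, against 141.5, 108.5 and 231.5 CPM in Atf3 low. These did not overlap, and the log2 fold change was −1.34 (SE 0.59, unadjusted p = 0.0281, adjusted p = 0.793, edgeR). The phosphodiesterase *Pde4b* had −1.59 (SE 0.99) and the phosphatase subunit *Ppp2r5a* −0.66 (SE 0.55). Of the genes for mitochondrial calcium uptake, all 12 had a row and 8 were tested, with 6 lower and 2 higher (median −0.08, 0 called). The uniporter regulators *Mcur1* (−0.95, SE 0.83) and *Smdt1* (0.15, SE 0.54) and the ion exchanger *Letm1* (−0.36, SE 0.61) had the smallest p of this list in edgeR.

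**Figure D4:**
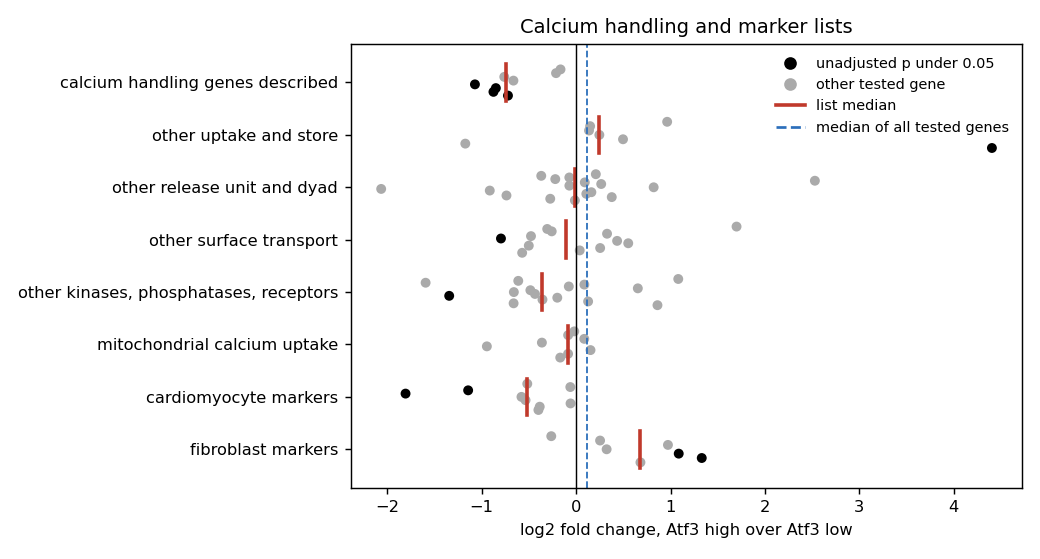
Log2 fold change (Atf3 high over Atf3 low) of each tested gene of the members, the 5 other calcium handling lists and 2 marker lists, black at an unadjusted p under 0.05. The point farthest right is *Strit1*, with no UMI in Atf3 low. Points such as *Strit1*, *Bin1* and *Orai1* reached the count minimum only through Atf3 high and are not read as results. The medians (red) are −0.74 for the members, −0.36 to 0.25 for the other calcium lists, −0.52 for cardiomyocyte and 0.68 for fibroblast markers.

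Some annotated transcripts can share reads with the members. Exons of *Atp2a2* overlap the antisense gene *Gm43361* over 83 bases, and *Gm43361* had 107 UMIs against 3648 of *Atp2a2*. Exons of *Pln* overlap *Cep85l* over 141 bases (5 UMIs) and *Gm47644* over 1644 bases (2 UMIs), both antisense. *Gm47644* matches *Pln* at 99.1% identity over 1376 bases. Exons of *Slc8a1* overlap the antisense gene *AC122399.1* over 296 bases, and *AC122399.1* matches *Slc8a1* at 99.0% identity over 309 bases. Both strands were searched, so the matches of *Gm47644* and *AC122399.1* can be these overlaps found again, not separate copies. *Atp2a2* has a copy outside these overlaps, *Gm30970*, at 99.2% identity over 362 bases. Whether the counting used strand is not given in the sources used here, so the values of *Atp2a2*, *Pln* and *Slc8a1* are uncertain by what these partners could take.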

How the data were processed

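The deposited table gives UMI counts for each gene in each library, not normalized. Per the submitters' processing notes, UMI-tools (version 1.0.0), HISAT2 (version 2.1.0), featureCounts (version 1.6.4) and GRCm38 were used, and the annotation and strand setting are not given in the sources used here. Libraries were grouped by label, 3 against 3. The 7665 genes with at least 10 UMIs over 6 libraries were normalized by TMM and tested by edgeR's quasi-likelihood test (version 4.0.16, R 4.3.3), with Benjamini-Hochberg adjustment and no covariate. The members and lists were chosen with earlier results of these data known. Genes named are every member, the 3 of smallest p in each other list (some are not reported here), the 5 most like *Atp2a2*, library checks and genes that overlap or copy a member. *Myh6*, *Ttn* and *Tnnc1*, and *Ryr1*, *Ryr3*, *Fkbp1b* and *Mb*, were named after their values were seen. *Sln* and *Slc8a1* left 2 of 4 planned ratios, computed with 0.5 UMIs added. Positions are from GENCODE vM21, and copies (95% identity over 200 bases) from BLAST+ (version 2.17.0). Alternatives were DESeq2 (version 1.42.0), limma-voom and limma-trend (version 3.58.1), other scalings and filters, a replicate block and leaving out each library. The counts in libraries of 1 group differed beyond sampling noise (3.55 to 5.07 chi-square units per degree of freedom), and each counted as a replicate. The study gives them as biological replicates, but the labels tie no area to an animal, so p-values measure the spread between these libraries.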

Additional observations from a re-analysis of the deposited data

How the results depend on the processing

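Over 16 alternatives and 8 members (128 values), 118 log2 fold changes were lower in Atf3 high, 10 were higher, and no adjusted p was under 0.05 (0.264 to 1.00). Genes called in all (7) came to 3 with limma-trend, 24 with the replicate block, 15 with marker scaling (added after seeing the data) and 0 to 11 with 1 library left out. Genes at an unadjusted p under 0.05 were 172 lower and 272 higher, against 104 and 410 with library size scaling, 59 and 60 with filterByExpr and 34 and 983 with marker scaling, where DESeq2 had 127 higher and leaving out 1 library gave 146 to 315. Members at that p (4) were 1 with library size scaling, 1 with no filter, 0 with marker scaling and 0 to 5 with 1 library left out. Other calcium genes at that p (3, *Strit1* among them) were 1 with library size scaling, 1 with filterByExpr and 0 to 3 with 1 library left out. Those lower (32) were 20 with filterByExpr and 8 with marker scaling. With marker scaling their median was 0.67, that of the members −0.053 and that of all genes 0.84. *S100a1* turned to 0.12 with limma-voom, 0.015 with limma-trend, 0.016 with library size scaling, 0.0094 with the replicate block, 0.57 with marker scaling and −0.63 to 0.081 with 1 library left out. *Camk2d* turned to 0.0010 with library size scaling and 0.56 with marker scaling, where *Ppp2r5a* was 0.24 and *Letm1* 0.42. With 1 library left out, *Smdt1* ranged from −0.23 to 0.37 and *Mcur1* from −1.66 to 0.44. The log2 ratio to *Atp2a2* ranged from −0.52 to −0.055 for *Pln* and from −0.30 to 0.11 for *Ryr2*, and no call of a member depended on the replicate block. The causes were not tested. Deviations from the group means had r of 0.0851, 0.000876 and 0.0657 between same-numbered libraries, against −0.0946 to 0.0191 between the others. With 3 libraries a group these r cannot decide whether the numbers mark pairs. The 2 libraries numbered 2 differed in sex-linked RNA. Atf3 low replicate 2 had 13 *Xist* UMIs and 0 of *Ddx3y* and *Eif2s3y*, where Atf3 high replicate 2 had 0 and 16. With a common biological variation (CV) of 53.6% and as few as 146 UMIs for a tested member, the depth limits small differences.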
